A study of Mus musculus with 4 samples.

Results

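The 8 genes described here encode secreted antagonists of Wnt signalling: Wif1, Sfrp1, Sfrp2, Sfrp4, Sfrp5, Frzb, Dkk2 and Dkk3. They were chosen by symbol, as the rows with these names among the 33456 genes listed for every library. Wnt proteins are secreted lipid-modified ligands that bind Frizzled receptors and Lrp co-receptors on the cell surface, and in the canonical pathway this stabilises beta-catenin, which acts with TCF/LEF factors on target genes. Wif1 binds Wnt ligands through its WIF domain, the Sfrp proteins and Frzb carry a cysteine-rich domain like that of the Frizzled receptors, and Dkk2 binds the Lrp co-receptors instead, while the part of Dkk3, a divergent Dickkopf protein, in Wnt signalling is less clear. Endoneurial fibroblasts lie between the axons of nerve and ganglion, epineurial and adventitial fibroblasts build the outer sheath and the surroundings of vessels, and the perineurium forms a barrier between them.

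Single-cell transcriptomes were measured in whole dorsal root ganglia (DRG) of female C57BL/6 mice aged 8 to 12 weeks. The sample labels name the L4 ganglion, while the study's methods name L4 and L5. The design compared uninjured ganglia (control, 2 libraries) with ganglia taken 3 days after a crush of the sciatic nerve (injury, 2 libraries). In both groups, ganglia were dissociated enzymatically, live cells were sorted by FACS and loaded on the 10x Genomics Chromium system, which counts molecules from the 3′ end of polyadenylated RNA by unique molecular identifiers (UMIs). Cells of several mice were pooled per batch according to the study, so that n counts libraries and not animals, and p-values measure the spread between libraries. How the animals were divided over the libraries was not given in the sources used here, and the sample labels list the crush among the protocols of all 4 libraries, so that the groups were taken from the sample titles.

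After filtering, 6095 of 6975 barcodes were kept, with 1301 and 1341 cells in controls 1 and 2 and 2377 and 1076 in injuries 1 and 2, and with 4293865 to 9139674 UMIs per library. Pairs of libraries shared 1 to 6 barcodes. Cells were assigned to kinds by lists of marker genes that contain none of the 8 antagonists, and 767 cells met no list clearly. Among 1310 fibroblasts, 745 were endoneurial (Apod, Lum, Ccl11), 369 epineurial (H19, Igf2, Mfap4), 91 adventitial (Pi16, Clec3b, Inmt) and 56 carried markers of the perineurial barrier. The barrier cells were led by Lypd2, Cldn11, Igfbp6 and Kcnj13 and are called Cldn11/Kcnj13 cells here, and 49 fibroblasts fell to no single kind. Of the 9 endoneurial markers, 7 were found in at least 50% of the endoneurial cells. Adventitial cells held Pi16 in 80.2%, Anxa3 in 78.0%, Cd248 in 51.6%, Cd55 in 47.3%, Sema3c in 44.0% and Dpp4 in 8.79%. Clusters from a neighbour graph placed 94.9% of endoneurial, 91.1% of Cldn11/Kcnj13, 76.9% of adventitial and 66.1% of epineurial cells in the same kind. Levels are given as CPM, the UMIs of the gene per 1000000 UMIs of all cells of that kind in the library, and mean levels use libraries with at least 10 cells of the kind. Levels are compared between cells and libraries for 1 gene at a time.

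All 8 antagonists were detected, in sets of cells that overlapped in part. Among the named kinds as gated, Sfrp4 was highest in adventitial and epineurial fibroblasts, Wif1 in endoneurial fibroblasts and Dkk3 in epineurial fibroblasts, and Sfrp5 was found mostly in glia and in Cldn11/Kcnj13 cells. Frzb was shared by myelinating Schwann cells and endoneurial fibroblasts, and Sfrp1 by satellite and non-myelinating glia, Cldn11/Kcnj13 cells and endoneurial fibroblasts. Fibroblasts held 95.9% of the 23696 Sfrp4 UMIs, 92.3% of the 1066 Sfrp2 UMIs and 90.3% of the 383 Wif1 UMIs. They held 56.6% of Dkk3, 45.7% of Dkk2, 43.3% of Frzb and 34.9% of Sfrp1, but only 5.88% of the 10285 Sfrp5 UMIs. Wif1 was seen in 2.72% of all cells and Dkk2 in 1.23%, so that their values rest on few molecules.

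**Figure D1:**
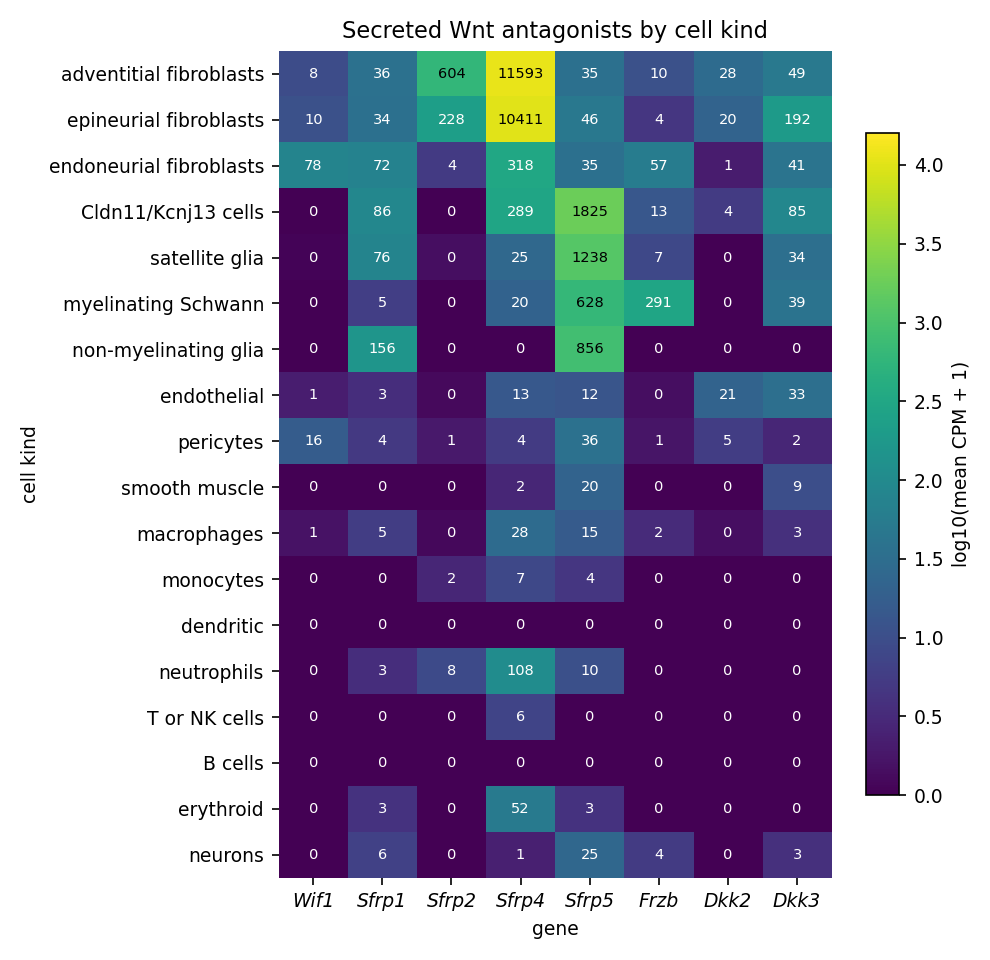
Heat map of the mean level (CPM, colour on a log10 scale) of the 8 antagonists (columns) in each cell kind (rows), over libraries with at least 10 cells of the kind. Sfrp4 is highest in adventitial (mean 11593 CPM) and epineurial (10411 CPM) fibroblasts, and Sfrp5 is high in glia and Cldn11/Kcnj13 cells.

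Differences between fibroblast kinds were tested on counts summed per library and kind, each kind against the mean of the other 3, with the library as a block (edgeR quasi-likelihood test, Benjamini-Hochberg adjustment over 5118 genes). Enough counts to be tested were found for 7 of the 8 antagonists, all but Dkk2. Of their 28 differences, 13 passed an adjusted p of 0.05, 8 higher and 5 lower. The share of all tested genes past that threshold was 7.95% in adventitial (5.24% higher, 2.72% lower), 13.6% in epineurial (8.01% higher, 5.63% lower), 22.9% in endoneurial (13.6% higher, 9.3% lower) and 8.05% in Cldn11/Kcnj13 cells (4.73% higher, 3.32% lower). Cldn11/Kcnj13 cells entered with the 2 replicate 2 libraries only. The kinds were set by other genes of the same cells, so these tests compare kinds drawn from the same libraries.

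Sfrp4 (ENSMUSG00000021319, mm10, chr13:19623104-19632994, plus strand), a Wnt-binding secreted Frizzled-related protein, was highest in the outer fibroblasts. Its level in adventitial fibroblasts was 13716 and 8040 CPM in controls 1 and 2 and 13363 and 11251 CPM in injuries 1 and 2. In epineurial fibroblasts it was 8636, 7896, 15508 and 9604 CPM in the same order. These 2 kinds overlapped, and every library of both stood far above every endoneurial library, where Sfrp4 measured 156, 164, 389 and 565 CPM. The gene was found in 90.1% of adventitial and 96.5% of epineurial cells, against 1 of 57 T and NK cells and 0 of 44 B cells (limit of a count of 0, 6.82%). Control 1 gave 49 of the 57 T and NK cells and 24 of the 44 B cells. The T and NK share, here and for the genes below, thus describes mainly that library. Median depth was 4203 and 4196 UMIs per cell in the 2 fibroblast kinds, 2562 in T and NK cells and 2173 in B cells. After thinning each cell to 1000 UMIs, the epineurial share was 90.2%.

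Sfrp4 was higher in adventitial cells than in the other fibroblast kinds by 3.56 on the log2 scale (SE 0.23, edgeR adjusted p = 1.14e-08) and higher in epineurial cells by 3.32 (SE 0.23, edgeR adjusted p = 6.95e-09). It was lower in endoneurial cells, with a log2 difference of -3.29 (SE 0.28, edgeR adjusted p = 5.10e-08), and in Cldn11/Kcnj13 cells, with -3.59 (SE 0.43, edgeR adjusted p = 1.89e-05). Outside the fibroblasts, macrophages held a Sfrp4 UMI in 41 of 1006 cells (4.08%) at 13.2 to 63.4 CPM, and satellite glia measured 9.4 to 48.4 CPM. Neutrophils held a Sfrp4 UMI in 9.88% of cells, at 15.1 to 382 CPM, and erythroid cells in 12.8%. Whether any of these levels outside the fibroblasts is free RNA from the fibroblasts was not tested.

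Sfrp2 (ENSMUSG00000027996, mm10, chr3:83766321-83774316, plus strand), a further family member, was carried by few cells. The gene lies opposite the antisense gene Gm26771. All fibroblasts together gave 15 and 711 UMIs in controls 1 and 2 and 41 and 217 UMIs in injuries 1 and 2. Both replicate 2 libraries were well above both replicate 1 libraries, in either condition. In adventitial cells the level was 0, 1963, 0 and 452 CPM, and in epineurial cells 70.4, 515, 111 and 215 CPM. A Sfrp2 UMI was found in 12.1% of adventitial cells (9.82% after thinning) and 10.0% of epineurial cells, and in 0 of 57 T and NK cells. The largest share was that of the 49 fibroblasts of no single kind, with a UMI in 34.7% (19.7% after thinning) at 1932 and 253 CPM in control 2 and injury 1, the libraries with at least 10 such cells. Only 37 fibroblasts had 5 or more Sfrp2 UMIs, and they held 94.2% of the 984 fibroblast UMIs. Of the 68 fibroblasts with Sfrp2, 62 also held Sfrp4.

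The test gave a log2 difference of 6.27 in adventitial (SE 0.75, edgeR adjusted p = 1.63e-05) and 5.02 in epineurial cells (SE 0.82, edgeR adjusted p = 2.88e-04). Since Cldn11/Kcnj13 cells held no Sfrp2 UMI, the size of both depends on the prior count of the fit. With DESeq2 the adventitial difference had an adjusted p of 0.102. With clusters from a neighbour graph built without the antagonists, 1020 of the 1066 Sfrp2 UMIs lay in the cluster led by Pi16 and Clec3b (called the Pi16/Clec3b cluster), and the epineurial difference was 0.60 with an edgeR adjusted p of 0.828. The Pi16/Clec3b cluster of 278 cells held 70 of the 91 gated adventitial cells.

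Dkk3 (ENSMUSG00000030772, mm10, chr7:112116017-112159057, minus strand), the divergent Dickkopf protein, was highest in epineurial fibroblasts. Its level there was 174 and 188 CPM in controls 1 and 2 and 219 and 185 CPM in injuries 1 and 2 (192 ± 19.4 CPM, SD, n = 4 libraries). No library with at least 10 cells of another kind reached these values. The next levels were 119 CPM in control 2 and 127 CPM in injury 1 in fibroblasts of no single kind. Then came 102 and 69.1 CPM in the replicate 2 libraries of Cldn11/Kcnj13 cells, 35.7 to 69.5 CPM in adventitial and 18.0 to 68.9 CPM in endoneurial cells. Dkk3 was found in 50.1% of epineurial cells (16.6% after thinning) and in 0.80% of macrophages. It was higher in epineurial cells by 1.81 on the log2 scale (SE 0.23, edgeR adjusted p = 1.40e-05) and lower in endoneurial cells, with -0.96 (SE 0.27, edgeR adjusted p = 0.0145). The endoneurial call was lost without injury 1 (adjusted p = 0.0727) and without injury 2 (adjusted p = 0.0529). Of 326 fibroblasts with Dkk3, 252 also held Sfrp4.

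Dkk2 (ENSMUSG00000028031, mm10, chr3:132085292-132180304, plus strand), a ligand of the Lrp co-receptors, gave 105 UMIs in all. It was found in 8.79% of adventitial and 6.23% of epineurial fibroblasts and in 5.87% of endothelial cells, and in no satellite glial or myelinating Schwann cell. The adventitial level was 47.6 and 29.9 CPM in controls and 22.4 and 11.6 CPM in injuries, the epineurial level 14.1 and 14.9 CPM in controls and 32.3 and 20.3 CPM in injuries. Each value rests on few UMIs and the 2 kinds overlapped. Of 34 fibroblasts with Dkk2, 33 also held Sfrp4.

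Sfrp5 (ENSMUSG00000018822, mm10, chr19:42197971-42202252, minus strand), a Wnt-binding family member, was a gene of glia. Satellite glia, which enwrap the neuronal cell bodies, measured 616 and 1880 CPM in controls 1 and 2 and 956 and 1501 CPM in injuries 1 and 2. Myelinating Schwann cells measured 1025, 427, 716 and 345 CPM in the same order. Within satellite glia the replicate 2 libraries were the higher, and within Schwann cells the replicate 1 libraries were, so that the order between the 2 kinds changed with the library. Myelinating Schwann cells formed 2 graph clusters. In the same order of libraries, the first held 88, 6, 67 and 5 cells and the second 22, 29, 28 and 18. Sfrp5 measured 1418, 1314, 963 and 910 CPM in the first and 370, 401, 469 and 376 CPM in the second. The part of this mix in the order of the libraries was not tested. A Sfrp5 UMI was found in 73.8% of satellite glia (51.7% after thinning) and 71.4% of Schwann cells, in 3.08% of macrophages, and in 0 of 57 T and NK cells (limit 5.26%).

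Among fibroblasts, Sfrp5 was highest in the Cldn11/Kcnj13 cells, of which 71.4% held a UMI. Their level was 1705 CPM in control 2 and 1944 CPM in injury 2, and the replicate 1 libraries had fewer than 10 such cells. The log2 difference from the other fibroblast kinds was 5.10 (SE 0.45, edgeR adjusted p = 7.37e-07). In the graph cluster of Cldn11/Kcnj13 cells, Sfrp5 measured 253 and 1717 CPM in controls 1 and 2 (5 and 27 cells). In injuries 1 and 2 of that cluster it measured 613 and 1893 CPM (14 and 23 cells). In endoneurial cells, which measured 6.0, 97.9, 6.7 and 29.8 CPM, Sfrp5 was lower with a log2 difference of -1.77 (SE 0.57, edgeR adjusted p = 0.0308). Their mean of 35.1 CPM was close to that of adventitial (34.6 CPM) and epineurial cells (46.3 CPM), against 1825 CPM in Cldn11/Kcnj13 cells. The log2 differences of adventitial (-1.82) and epineurial cells (-1.52) were of similar size and did not pass. The endoneurial call was lost in 5 of 13 alternatives, among them without injury 1 (adjusted p = 0.0931) and without injury 2, and changed sign in 1 more. Summed satellite glial markers in the endoneurial cells moved with the Sfrp5 values of these cells, at 61.1, 852, 97.3 and 202 CPM, and their part in the Sfrp5 level was not tested.

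**Figure D2:**
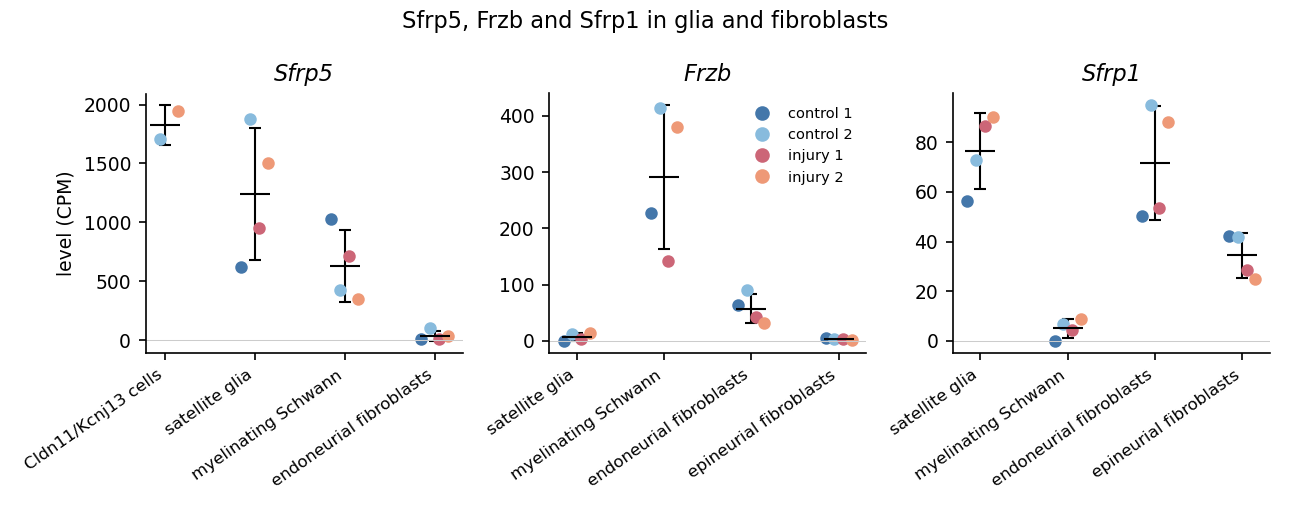
Levels (CPM, linear axis) of Sfrp5, Sfrp1 and Frzb in glial and fibroblast kinds. Each point is a library with at least 10 cells of the kind and the bar with whisker is the mean ± SD. Sfrp5 spreads from 616 to 1880 CPM within satellite glia, and Frzb is high in myelinating Schwann cells (142 to 414 CPM) and lower in endoneurial fibroblasts (31.2 to 90.3 CPM).

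Frzb (ENSMUSG00000027004, mm10, chr2:80411970-80447625, minus strand), also known as secreted Frizzled-related protein 3, marked myelinating Schwann cells at 228 and 414 CPM in controls 1 and 2 and 142 and 380 CPM in injuries 1 and 2. Endoneurial fibroblasts came next with 64.7 and 90.3 CPM in controls and 42.9 and 31.2 CPM in injuries. As gated, these ranges did not overlap with each other or with any other kind of at least 10 cells, since satellite glia measured 0 to 13.6 CPM and epineurial cells 2.3 to 4.7 CPM. The graph cluster of 97 Schwann cells held Frzb in 71.1% of cells, at 450, 453, 305 and 417 CPM. The cluster of 166 held it in 13.3%, at 108, 71.0, 32.4 and 126 CPM, with 6 and 5 cells in the replicate 2 libraries. These values overlapped the endoneurial graph cluster (64.7, 93.2, 42.6 and 32.9 CPM). Frzb was found in 34.1% of Schwann cells (16.2% after thinning) and 17.0% of endoneurial cells, and in 0 of 57 T and NK cells. Among fibroblast kinds it was higher in endoneurial cells by 2.96 on the log2 scale (SE 0.36, edgeR adjusted p = 4.13e-06). It was lower in epineurial cells, with -2.55 (SE 0.68, edgeR adjusted p = 0.0156), a call that was lost without injury 2 (log2 difference -0.65, adjusted p = 0.987).

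Sfrp1 (ENSMUSG00000031548, mm10, chr8:23411502-23449632, plus strand), a broadly expressed family member, was spread over more kinds. Satellite glia measured 56.5 and 72.7 CPM in controls 1 and 2 and 86.7 and 90.04 CPM in injuries 1 and 2. Endoneurial fibroblasts measured 50.3, 94.9, 53.4 and 88.05 CPM and epineurial fibroblasts 42.3, 42.0, 28.7 and 24.8 CPM in the same order. Satellite glia and endoneurial cells overlapped, and the epineurial libraries lay below both. Myelinating Schwann cells measured 0 to 8.8 CPM, while the 38 non-myelinating glia measured 98.2, 214 and 154 CPM in control 1, injury 1 and injury 2, from 2 to 11 UMIs. Cldn11/Kcnj13 cells measured 33.9 CPM in control 2 and 138 CPM in injury 2, and 30.4% of them held a UMI (10.5% after thinning). Sfrp1 was found in 27.0% of satellite glia and 22.6% of endoneurial cells (6.18% after thinning), and in 0 of 57 T and NK cells. The endoneurial difference of 0.91 from other fibroblast kinds (SE 0.34) had an edgeR adjusted p of 0.0656.

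Wif1 (ENSMUSG00000020218, mm10, chr10:121033960-121100650, plus strand), which binds and holds Wnt ligands, was highest in endoneurial fibroblasts among the named kinds of fibroblast as gated. The sequence just before its annotated start is shown because Wif1 had the lowest p of the members for injury and is itself, as background, a known target gene of canonical Wnt signalling. The window is RefSeq sequence of GRCm38.p6, plus strand, chr10:121033754-121033959, with matches to the core of the TCF/LEF motif, CTTTG or its reverse complement CAAAG, in capitals.

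Wif1: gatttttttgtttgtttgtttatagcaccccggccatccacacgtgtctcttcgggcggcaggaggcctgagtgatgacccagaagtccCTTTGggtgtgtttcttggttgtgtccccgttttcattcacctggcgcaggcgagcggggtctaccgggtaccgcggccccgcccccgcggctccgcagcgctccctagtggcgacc

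The window held 1 match. Of 32851 promoter windows cut to the same length, 43.1% held at least 1 match on either strand, so that a match is common and describes the letters only.

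By kind, Wif1 measured 34.8 and 35.2 CPM in controls 1 and 2 and 104 and 137 CPM in injuries 1 and 2 in endoneurial cells. In epineurial cells it was 0, 2.7, 7.2 and 29.4 CPM, in adventitial cells 0, 0, 22.4 and 11.6 CPM and in pericytes 11.0, 12.8, 39.5 and 0 CPM. Each endoneurial library was above the epineurial and adventitial cells of the same library, while the 4 endoneurial values overlapped the 4 pericyte values. Fibroblasts of no single kind, 7 to 17 cells per library, measured 0, 268, 203 and 831 CPM. No Wif1 UMI was seen in 255 myelinating Schwann cells (limit of a count of 0, 1.18%) or 63 neurons (4.76%). It was found in 1 of 1449 satellite glia and 5 of 1006 macrophages (0.497%), and in 0 of 57 T and NK cells. The log2 difference of endoneurial cells from the other fibroblast kinds was 4.85 (SE 0.48, edgeR adjusted p = 4.06e-07). In the libraries tested, Cldn11/Kcnj13 cells held no Wif1 UMI, so the size of this difference depends on the prior count.

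**Figure D3:**
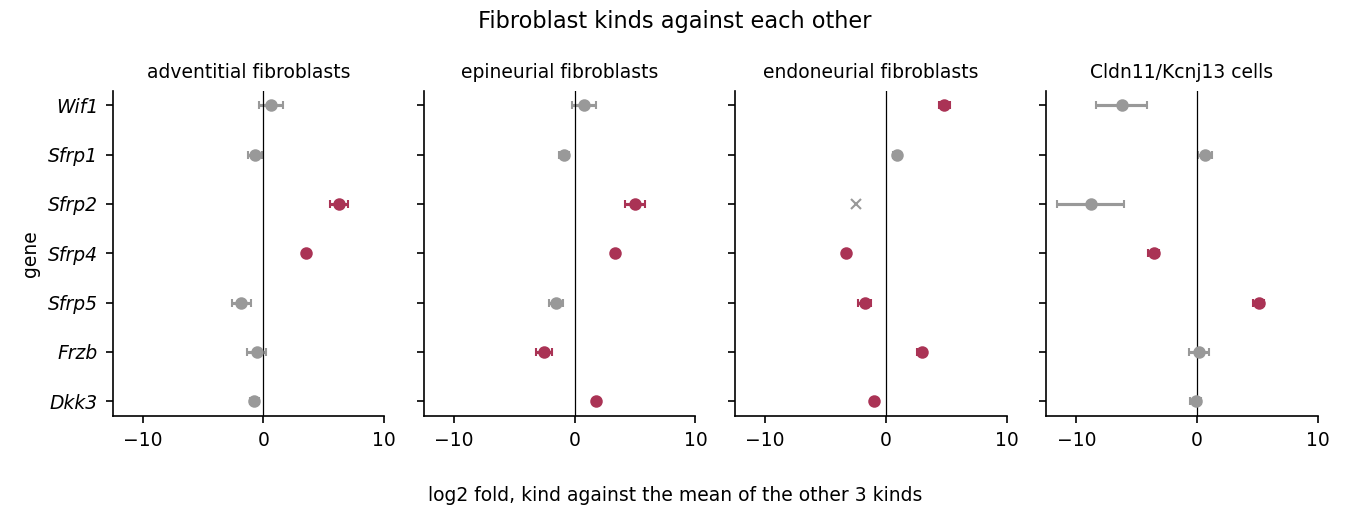
Log2 difference (± SE) of each antagonist in 1 fibroblast kind from the mean of the other 3, from the edgeR quasi-likelihood fit; red marks an adjusted p under 0.05, grey the others, and a cross a value without a usable SE. Sfrp4 is above 0 in adventitial and epineurial cells and below 0 in endoneurial and Cldn11/Kcnj13 cells, and Wif1 and Frzb are above 0 in endoneurial cells.

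The second comparison of the design was injury against control within each cell kind. Wif1 and Sfrp4 were higher after injury in endoneurial fibroblasts in both injury libraries, but neither passed the adjusted threshold with the gates as fixed. Of the antagonists, 25 differences could be tested in 7 kinds, and edgeR called 0 of them at an adjusted p of 0.05. In endoneurial cells 6 of 6981 genes were called (0.0859%), none of them an antagonist, and 318 genes (4.56%) had an unadjusted p under 0.05. Over the 25 differences, 3 had an unadjusted p under 0.05, all in endoneurial cells. DESeq2 called 2 of the 25, Wif1 and Sfrp4 in endoneurial cells, where it called 0.244% of all genes. With the replicate number as a block, edgeR also called these 2, in a fit that called 0.415% of the 6981 genes. No source used here ties a replicate number to a batch, so the main test was not blocked.

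Wif1 in endoneurial cells rested on 29 and 23 UMIs in controls 1 and 2 and on 109 and 101 UMIs in injuries 1 and 2. The mean level was 34.98 ± 0.302 CPM in controls and 120 ± 23.2 CPM in injuries (SD, n = 2 libraries each). The groups did not overlap, and the SD of the controls rests on few UMIs. The log2 difference was 1.85 (SE 0.25, unadjusted p = 8.58e-05 and adjusted p = 0.0705 by edgeR), the rank 7 among the 6981 genes. The adjusted p by DESeq2 was 0.0281. Leaving out 1 library leaves a single library in 1 condition, which is then assumed to vary like the other condition. Wif1 stayed higher in each of these fits, but whether it passed the threshold depended on the library left out.

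The share of endoneurial cells with a Wif1 UMI was 2.86% in control 1 (exact binomial 95% interval 1.06 to 6.11%) and 4.82% in control 2 (2.103 to 9.27%). It was 23.8% in injury 1 (18.3 to 29.9%) and 32.2% in injury 2 (24.7 to 40.4%), above both controls, with intervals that cover counting error only. Cells were deeper after injury, with median UMIs of 3621, 3597.5, 4474 and 4702.5 in the 4 libraries. After thinning to 1000 UMIs, the shares were 1.04, 2.17, 8.02 and 10.7%, in the same order of conditions. The UMIs came from 6 and 8 cells in controls and 53 and 47 cells in injuries, so that UMIs per cell with Wif1 were not higher after injury over all gated cells. Among the gated cells in the endoneurial graph cluster, control cells with Wif1 held at most 1 UMI, and injured cells up to 11 and 6.

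**Figure D4:**
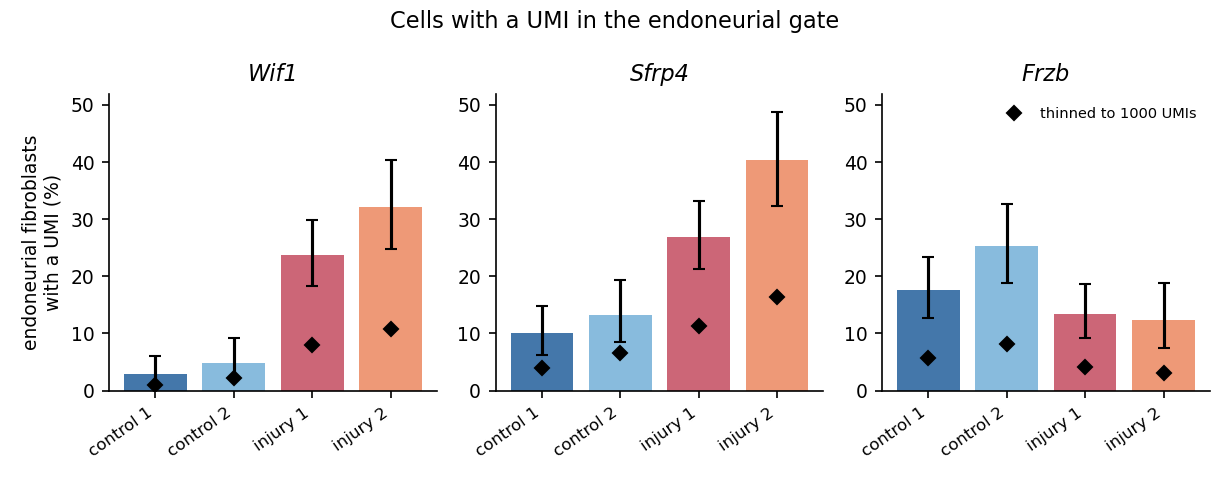
Share of endoneurial fibroblasts (%) with a UMI of Wif1, Sfrp4 or Frzb in each library; whiskers are exact binomial 95% intervals and diamonds the share after thinning to 1000 UMIs per cell. Wif1 was found in 2.86 and 4.82% of control cells and in 23.8 and 32.2% of injured cells.

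The control values of Wif1 depended on how endoneurial cells were drawn. In control 1, 24 of the 29 Wif1 UMIs of gated endoneurial cells came from 1 cell that the graph placed in the Pi16/Clec3b cluster, and in control 2, 18 of the 23 UMIs came from 3 cells of that cluster. In the endoneurial graph cluster of 721 cells, Wif1 measured 7.19 and 8.18 CPM in controls 1 and 2 (6 and 5 UMIs) and 106 and 148 CPM in injuries 1 and 2 (109 and 99 UMIs). Both injured libraries stood well above both controls. The log2 difference was 4.10 and passed the threshold (edgeR adjusted p = 0.00401), in a fit that called 0.148% of 6769 genes. Without each library in turn it was 3.92 to 4.29, with a single library then left in 1 condition. In cells that gate and cluster placed alike it was 4.21 (edgeR adjusted p = 0.00391, 0.132% of 6793 genes called). In those gated cells of the endoneurial cluster, Wif1 was found in 5 of 208 and 5 of 152 control cells (5 UMIs each) and in 53 of 214 and 46 of 133 injured cells (109 and 99 UMIs). In the cluster fit and the fit of cells placed alike, Wif1 had enough counts to be tested through the injury libraries only.

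In the Pi16/Clec3b cluster, by contrast, Wif1 was present in both conditions, at 163 and 118 CPM in controls 1 and 2 (24 and 44 UMIs) and 41.0 and 132 CPM in injuries 1 and 2 (12 and 53 UMIs). The groups overlapped, and in both controls Wif1 was higher there than in the endoneurial cluster. In control 1 this rests on 1 cell, gated as endoneurial, that held all 24 UMIs. In control 2, 3 cells gated as endoneurial held 18 of the 44 UMIs. The part of these cells in the difference between the clusters was not tested. The difference of the injury effect between the endoneurial and the Pi16/Clec3b cluster, a test chosen after these values were seen, was 4.77 on the log2 scale (SE 0.52, edgeR adjusted p = 0.00168), with 0.029% of 6906 genes called. Without each library in turn it was 4.34 to 5.56, with a single library then left in 1 condition. With the gates the difference from adventitial cells, which held 0, 0, 3 and 1 Wif1 UMIs, was -4.15 (SE 3.00, edgeR adjusted p = 1). The difference from epineurial cells did not pass either, at -1.27 with the gates (adjusted p = 0.896) and 1.57 with the clusters (adjusted p = 0.946). Clusters share their libraries, so the 2 effects are not from separate animals.

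**Figure D5:**
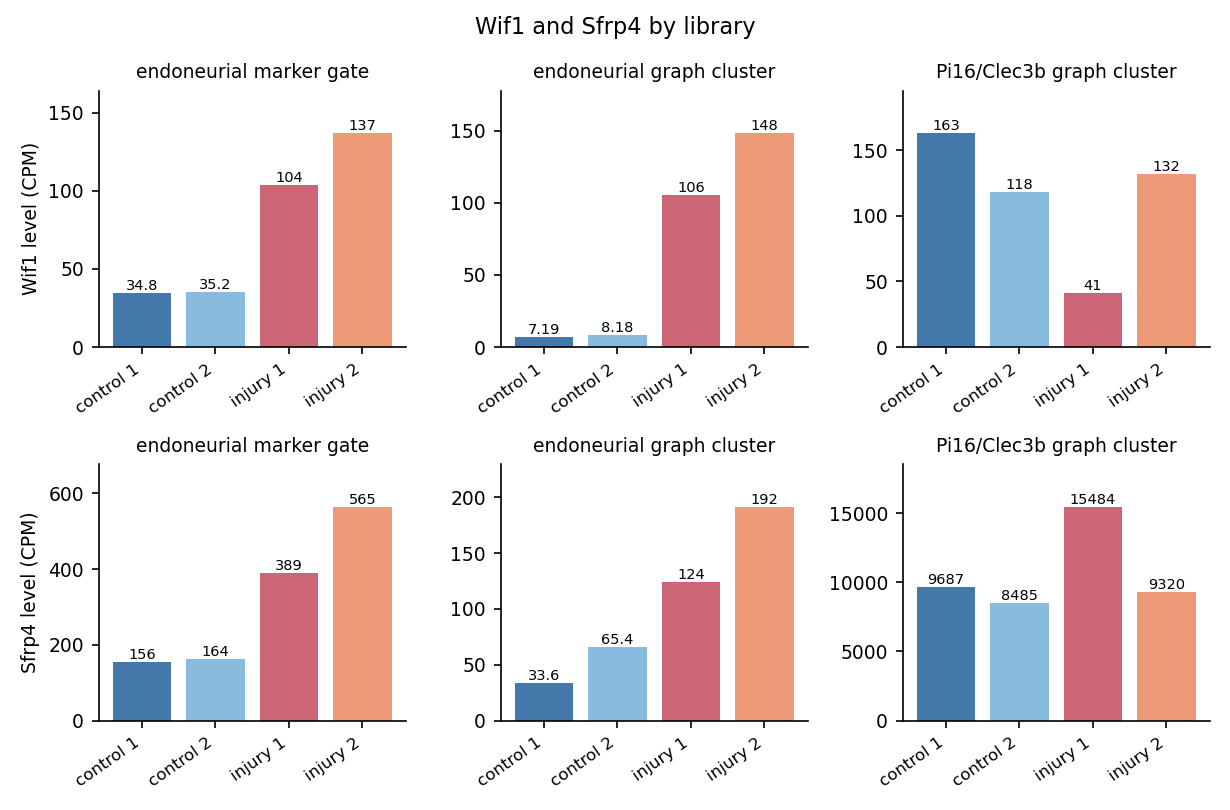
Level (CPM, bars from 0) of Wif1 and Sfrp4 in each of the 4 libraries, in gated endoneurial cells, in the endoneurial graph cluster and in the Pi16/Clec3b cluster. Wif1 rises from 7.19 and 8.18 CPM in controls to 106 and 148 CPM in injuries in the endoneurial cluster, and in the Pi16/Clec3b cluster the conditions overlap.

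Sfrp4 in endoneurial cells rested on 130 and 107 UMIs in controls 1 and 2 and on 408 and 417 in injuries 1 and 2. The log2 difference was 1.65 (SE 0.24, unadjusted p = 1.27e-04 and adjusted p = 0.0806 by edgeR), the rank 11 of 6981 genes, and DESeq2 gave an adjusted p of 8.98e-04. A Sfrp4 UMI was found in 10.0 and 13.3% of control cells and in 26.9 and 40.4% of injured cells, or in 3.85, 6.53, 11.3 and 16.4% after thinning. The conditions did not overlap in level or in share. Few cells carried most of the level: 10 cells held 61.8% of the Sfrp4 UMIs of endoneurial cells. The gated endoneurial cells that the graph placed in the Pi16/Clec3b cluster numbered 2, 5, 7 and 8 in the 4 libraries and held 102 of 130, 60 of 107, 279 of 408 and 232 of 417 Sfrp4 UMIs. In the endoneurial graph cluster the level was 33.6, 65.4, 124 and 192 CPM, with a log2 difference of 1.77 and an edgeR adjusted p of 0.182.

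Epineurial markers in the gated endoneurial cells summed to 21.6, 76.5, 42.9 and 111 CPM and adventitial markers to 104, 150, 132 and 150 CPM, with the 4 libraries in the same order as above. Their part in the Sfrp4 level of endoneurial cells was not tested. In the outer fibroblasts themselves, the Sfrp4 difference was 0.17 in adventitial (adjusted p = 0.999) and 0.63 (SE 0.37) in epineurial cells, where edgeR called 0% of 1575 and 0% of 4865 genes, with 32 (2.03%) and 104 (2.14%) genes at an unadjusted p under 0.05. DESeq2 called no antagonist in either. The injury effect in endoneurial cells exceeded that in adventitial cells by 1.32 (SE 0.27, edgeR adjusted p = 0.0779) and that in epineurial cells by 1.04 (edgeR adjusted p = 0.320), so neither difference between kinds passed the threshold.

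Frzb was lower after injury in endoneurial cells, with 54 and 59 UMIs in controls 1 and 2 and 45 and 23 in injuries 1 and 2. Both injury levels lay below both control levels, and the log2 difference of -0.95 (SE 0.30) had an unadjusted p of 0.0143 and an adjusted p of 0.998 by edgeR. It was found in 17.6 and 25.3% of control and 13.5 and 12.3% of injured cells. In the same cells Sfrp1 differed by 0.04 and Dkk3 by -0.08, and Sfrp5 by -1.45 on the log2 scale, and none of these passed.

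In the glia no antagonist passed the threshold after injury. Sfrp5 differed by 0.0035 in satellite glia (SE 0.50) and by -0.46 in myelinating Schwann cells, Sfrp1 by 0.43 and Dkk3 by 0.30 in satellite glia, and Frzb by -0.36 in Schwann cells. Satellite glia lay in 2 graph clusters whose mix differed by library, with 97, 78, 502 and 56 cells in the one and 14, 353, 216 and 210 in the other, in the order control 1, control 2, injury 1 and injury 2. Sfrp5 measured 166, 410, 248 and 423 CPM in the first and 1919, 2155, 1582 and 1762 CPM in the second, where both injury libraries lay below both controls, and the clusters were not tested separately. EdgeR called 0% of 9083 genes in satellite glia and 0% of 2688 in Schwann cells, with 95 (1.05%) and 47 (1.75%) genes at an unadjusted p under 0.05. In macrophages Sfrp4 differed by 1.37 (adjusted p = 0.604, 0% of 7081 genes called and 587, or 8.29%, at an unadjusted p under 0.05), and in endothelial cells Dkk2 differed by 0.22 and Dkk3 by 0.33 (0% of 6013 genes called, 91, or 1.51%, unadjusted).

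Summed over all kept cells, edgeR called 0 of the 8 antagonists and 0% of 13165 genes, with 181 genes (1.37%) at an unadjusted p under 0.05. Among them were Wif1 with a log2 difference of 1.42 and Frzb with -0.86. Over all fibroblasts the Wif1 difference was 1.89 (SE 0.23, adjusted p = 0.352, 0% of 9261 genes called, 176, or 1.9%, unadjusted).

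The other genes of the Wnt pathway were read from a list of 67 ligands, potentiators, receptors, secretion factors, inhibitors, targets and feedback genes, of which 57 gave a UMI and 18 could be tested between fibroblast kinds. In endoneurial cells 2 of the 18 were higher, Nkd2, a feedback inhibitor (5.29, edgeR adjusted p = 3.31e-06), and Wnt5a, a largely non-canonical ligand (2.01, edgeR adjusted p = 3.78e-06). Over all 5118 genes 13.6% were higher in endoneurial cells, a share that 2 of 18 did not exceed. Another 6 of the 18 were lower, against 9.3% of all genes, among them the potentiator Rspo3 (-2.57) and the receptor Fzd7 (-2.14). The median of the 18 was -0.57 against 0.02 over all genes. In epineurial cells Rspo3 (3.25, edgeR adjusted p = 1.42e-07), the co-receptor Lrp6 (1.24) and the ligand Wnt9a (1.44) were higher and the ligand Wnt6 lower (-1.74, edgeR adjusted p = 0.0445). Of all genes, 8.01% were higher and 5.63% lower in these cells.

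In adventitial cells 3 were higher, the ligands Wnt2 (4.96, edgeR adjusted p = 3.43e-05) and Wnt9a (2.39) and the potentiator Rspo2 (5.18), and none was lower. In Cldn11/Kcnj13 cells 4 were higher, the ligands Wnt6 (3.65, edgeR adjusted p = 1.35e-04) and Wnt10a (6.51) and the receptors Fzd2 (1.21) and Fzd7 (1.70). Of all genes, 5.24% were higher in adventitial and 4.73% in Cldn11/Kcnj13 cells. In the libraries tested, Nkd2, Wnt2 and Rspo2 had no UMI in Cldn11/Kcnj13 cells, and Wnt10a had none in adventitial or epineurial cells. The sizes of their differences thus depend on the prior count. As kinds, epineurial and adventitial fibroblasts, both high in Sfrp4, were also higher in Wnt9a, with Rspo3 higher in epineurial and Wnt2 in adventitial cells. Endoneurial fibroblasts, higher in Wif1, were also higher in Nkd2 and Wnt5a as a kind. Whether the same cells held these genes and the antagonists was not tested. After injury edgeR called 0 of the list in any kind, with 19 tested in endoneurial cells, where 2 had an unadjusted p under 0.05, and 20 in satellite glia, where 0 had. DESeq2 also called 0 of the list in any kind.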

How the data were processed

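The authors sequenced 10x Genomics 3′ libraries and, per the labels and methods, made gene by cell tables with Cell Ranger on mm10. The deposited tables hold raw UMI counts, not normalised, for 4 libraries. Cells with 600 to 15000 UMIs, 500 to 4000 genes and under 10% mitochondrial UMIs were kept (all deposited barcodes as an alternative). Cell kinds were set by 19 marker lists (at least 3 markers, a lead of 1.2 over the next list), and alternatively by 22 Leiden clusters (scanpy 1.11.5) computed without the antagonists. Scrublet marked 34 cells (0.558%) as doublets, which were kept and removed in an alternative. Counts summed per library and kind (at least 10 cells) were tested with edgeR 4.0.16 (quasi-likelihood, R 4.3.3), or DESeq2 1.42.0, with p-values adjusted over all genes, after tests on simulated data. There the injury test recovered 3.5% of 2-fold and 81.5% of 4-fold changes in endoneurial cells, and 5% and 73.5% in satellite glia. The test of endoneurial cells against other fibroblast kinds recovered 70.5% of 2-fold changes. An injury difference near 2-fold could thus be missed. All 8 members are named, with the pathway list's genes that passed, except that only some of those lower in endoneurial cells are named. Per member with at least 100 UMIs, the 3 genes most alike over cell kinds on log2(mean CPM + 10) were found, and some of them are named. The members, lists and tests were chosen with earlier results of these data known. The cluster fits without single libraries, the cells that gate and cluster placed alike and the differences of effects were chosen after seeing the data. Sequence came from RefSeq, where 5 of 8 members had an entry, not Sfrp1, Sfrp4 and Dkk3. Strand-aware counting was not given in the sources used here.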

Additional observations from a re-analysis of the deposited data

Results flagged for a closer look

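Wif1 was flagged because its injury effect differed between a pair of fibroblast clusters. With the graph clusters, the log2 effect of injury was 4.77 higher in the endoneurial cluster than in the Pi16/Clec3b cluster (SE 0.52, edgeR adjusted p = 0.00168, a test chosen after the values were seen). Wif1 was higher in both injury libraries than in both controls in the endoneurial cluster, and the conditions overlapped in the Pi16/Clec3b cluster. In control 1 of the Pi16/Clec3b cluster all 24 UMIs lay in 1 cell that the marker gate called endoneurial. With the marker gates the difference from adventitial cells had the opposite sign and did not pass (-4.15, SE 3.00, adjusted p = 1), and the difference from epineurial cells passed neither with the gates (-1.27, adjusted p = 0.896) nor with the clusters (1.57, adjusted p = 0.946).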

How the results depend on the processing

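Of the antagonists tested for injury within a kind, 0 were called with the gates and edgeR, and 0 with relative log expression size factors, all deposited barcodes, a clearer marker lead, doublets removed or a log2 fold change of 2 or more required as well. In endoneurial cells the share of all genes called was 0.0859% with the gates and edgeR, 0.244% with DESeq2 and 0.549% with no filter. That share was 0.148% with graph clusters, 0.132% in cells placed alike and 0.415% with the replicate number as a block. The count of antagonists called within a kind was 2 with DESeq2, 4 with no filter on low counts and 1 with graph clusters. The count was also 1 in cells that gate and cluster placed alike. Without 1 library it ran from 1 to 5 with the gates and from 1 to 4 with the clusters. Those fits leave a single library in 1 condition. Their counts cover every kind tested, and the kinds and antagonists behind them are not named here. They therefore do not set the antagonists apart from other genes. With the replicate number as a block the count was 2 (Wif1 1.84 and Sfrp4 1.63 in endoneurial cells, both edgeR adjusted p = 0.00712). Same-numbered libraries deviated together (correlations 0.227 to 0.513), but no source used here ties a number to a batch, and there were 2 pairs. Wif1 in endoneurial cells stayed higher in all 17 alternatives (1.73 to 4.29) and passed in 11, Sfrp4 stayed higher in all 17 (1.30 to 2.29) and passed in 7, and Frzb stayed lower (-1.28 to -0.66) and passed in none. The 17 include the cells placed alike and the cluster fits without single libraries, which were chosen after seeing the data. They reuse largely the cells of the cluster fit, so the 11 passes of Wif1 are not separate checks. In the cluster fit, Wif1 had enough counts to be tested through the injury libraries only. The Sfrp4 injury difference changed sign in epineurial clusters without control 2 (-0.039) and without injury 1 (-0.24) and in adventitial cells without control 2 (-0.14, over single libraries left out -0.14 to 0.65). Over all cells the count was 0 in every alternative. Between fibroblast kinds, 10 to 19 calls were made against 13, and the block, left out, gave 11. In the main fit 7.95 to 22.9% of all genes were called per kind. The shares of all genes called in the alternatives are not given here, so these counts do not set the antagonists apart from other genes. Sfrp5 in endoneurial cells changed sign in cells placed alike (0.51, adjusted p = 0.816). Thinning to 1000 UMIs took the share of cells from 15.3 to 5.28% for Wif1 and from 22.6 to 6.18% for Sfrp1 in endoneurial cells, from 73.8 to 51.7% for Sfrp5 in satellite glia and from 34.1 to 16.2% for Frzb in Schwann cells. In epineurial cells it took Sfrp4 from 96.5 to 90.2%, Dkk2 from 6.23 to 1.72% and Dkk3 from 50.1 to 16.6%. The cause of the other changes was not tested. With 2 libraries per condition, depth limits Wif1, Dkk2 and Frzb most.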

Other observations

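Among injured endoneurial cells, 100 held a Wif1 UMI, and of these 41 also held Sfrp4 (29.0% of the 269 others) and 37 held Sfrp1 (19.7% of the others), while 6 held Frzb (15.6% of the others). In control endoneurial cells only 14 held Wif1, of which 5 held Sfrp4 (10.5% of the 362 others), 2 held Sfrp1 (21.0% of the others) and 2 held Frzb (21.3% of the others), so that the Sfrp1 shares had the opposite order. The injured Wif1 cells were deeper, at a median of 5541.5 UMIs against 4315, and the part of depth in these shares was not tested.

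Over the mean levels of 18 cell kinds, which share libraries, the genes with the pattern most like Sfrp4 were Angptl1 (Pearson r = 0.96) and Htra3 (0.94), like Sfrp1 F3 (0.95) and Matn2 (0.95), like Sfrp5 Cdh1 (0.93) and Paqr6 (0.93), and like Dkk3 Pcsk5 (0.94) and Tbc1d8b (0.93). Coch (0.94) was among those most like Wif1, Pax1 (0.99) among those most like Sfrp2 and Esm1 (0.97) was first for Dkk2. The 3 genes nearest to Frzb rested on 3 to 9 UMIs each.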
